A study of Arabidopsis thaliana with 30 samples.

Results

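Genes of leaf pigment synthesis, 5 in all, were followed through shade treatment in Arabidopsis seedlings: GSA1 (AT5G63570), CHLI2 (AT5G45930), CHLM (AT4G25080) and PORB (AT4G27440) of chlorophyll synthesis, and LYC (AT3G10230) of carotenoid synthesis. They were taken by name, through the locus to which a probe set is annotated, and make up 5 of the 22746 probe sets tested. The choice of these genes was made with earlier results of these data known. Each was read from the single probe set of its locus. No filter on low values was applied, so all 5 were tested in every comparison. Genome positions are not given because the files used here name no genome build.

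The study measured mRNA with 1-colour Affymetrix arrays, using entire seedlings of Columbia (Col-O) wild type (WT) and of pifq, a mutant of PIF1, PIF3, PIF4 and PIF5. All seedlings, controls included, came from imbibed seed that got 1.5 h of white light and then 5 days of darkness at 4 °C, and were raised at 21 °C on sucrose-free medium under white light (19 µmol/m2/s, red to far-red ratio 6.48) until day 2. Harvest followed at once (WL0), after 24 h more under that light (WL24), or after far-red light was added (ratio 0.006). The far-red groups FR1, FR3 and FR24 are named for their 1, 3 and 24 h of exposure. There were 10 groups of 3 arrays, 30 in all, and each array held RNA of a separate biological replicate that per the labels was grown and extracted on its own. Each genotype is 1 line, so the pif mutations and any other difference between the lines cannot be told apart.

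Chlorophyll is built in plastids along the tetrapyrrole pathway, which starts from glutamate. GSA1 encodes an aminotransferase that makes 5-aminolevulinic acid, the precursor of all tetrapyrroles. CHLI2 encodes an isoform of the I subunit of magnesium chelatase, which inserts magnesium and commits the pathway to chlorophyll, and CHLM encodes the methyltransferase that acts next. PORB encodes a protochlorophyllide oxidoreductase, which needs light to reduce protochlorophyllide, and unlike the related PORA it is also expressed in light-grown tissue. LYC encodes lycopene beta-cyclase, which closes the rings of beta-carotene. Light rich in far-red, as found under leaves, lowers the active form of the phytochrome receptors. PIF proteins are transcription factors that phytochromes hold in check, and in dark-grown seedlings they are known to restrain greening.

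Levels below are log2 RMA signals, and changes are log2 differences ± SE from 1 limma fit to all 30 arrays. A gene is said to have risen or fallen, or to be called, at an adjusted p under 0.05 (Benjamini-Hochberg over the 22746 probe sets of a comparison). Precision is limited by having 3 arrays in a group. Levels of different probe sets are not compared with each other. In whole seedlings, fewer cells of a type and less RNA per cell cannot be told apart. FR1 and FR3 seedlings were older than their WL0 controls by the time of treatment, so at 1 and 3 h the passing of time cannot be told apart from the light, while WL24 is of the age of FR24.

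Correlations between arrays within a group, taken over probe sets, were 0.995 to 0.998, and no 2 arrays were identical. In the annotation used here none of the 4 PIF genes is paired with a probe set of its own, and the genotype labels were not checked on them. Of 6 listed shade-response genes 3 were measured, IAA29, HAT2 and FHL. All 3 rose in the wild type at 1 and 3 h, IAA29 by 4.68 ± 0.13 and 4.95 ± 0.13. At 24 h in the wild type IAA29 rose (1.46), HAT2 fell (-0.68) and FHL was not called (-0.09). In pifq 2 of the 3 rose at 1 h, 3 at 3 h and 2 at 24 h. FHL read low, with a mean of 3.56 in wild-type WL0 and 4.14 in FR1. Green tissue was represented by 8 genes of 26 listed, whose mean level per array lay between 12.48 and 12.80 on all arrays. This narrow range does not hold for each gene, as group means of LHCB4.3 ran from 8.02 in wild-type WL24 to 9.94 in wild-type FR24. Of 11 listed root genes 3 were measured, EXPA7, EXPA18 and XTH26. Their mean level per group ranged from 5.60 in wild-type WL24 to 7.92 in pifq WL0. Whether these 3 genes follow root tissue as a whole was not tested. The lowest value of any probe set on any array was 2.42, so a reading of 0 could not mark absence. Whether each listed marker was expressed was not tested.

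**Figure D1:**
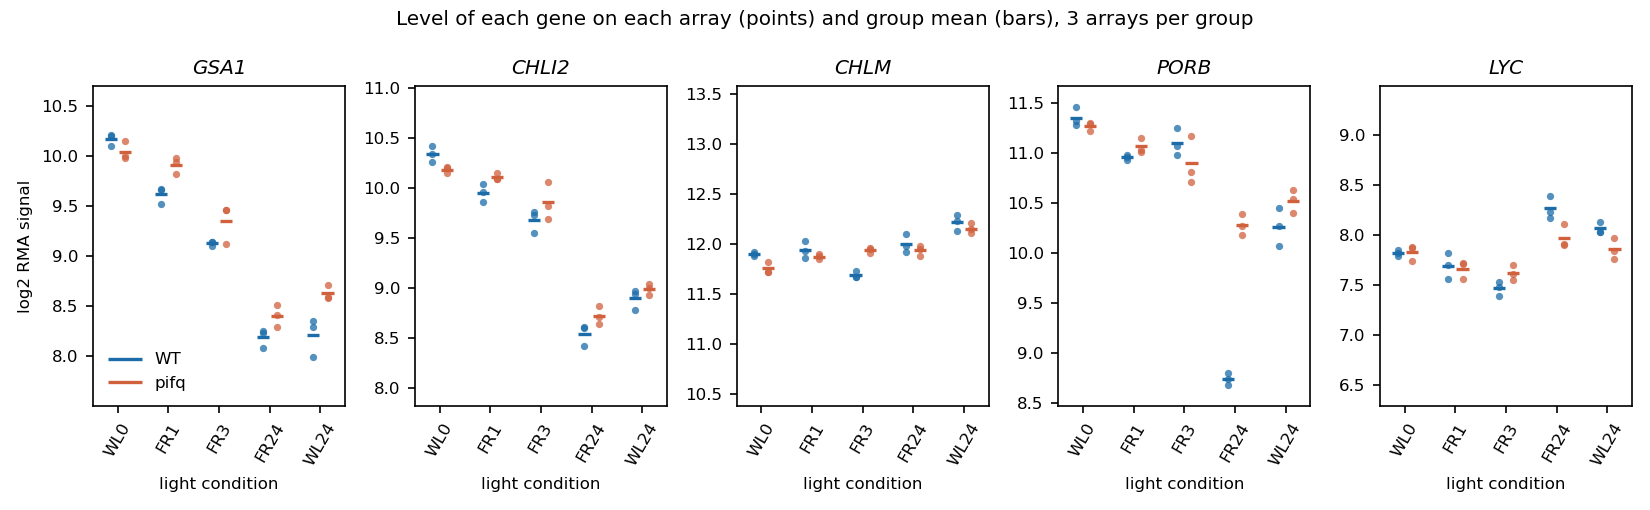
Log2 RMA signal of GSA1, CHLI2, CHLM, PORB and LYC (1 panel each) in the 5 light conditions, with a point for each array and a bar for each group mean (3 arrays), wild type in blue and pifq in red. All panels span the same number of log2 units but start at different levels. The 3 wild-type FR24 arrays of PORB, at 8.68 to 8.80, lie below all other arrays of that gene.

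GSA1 had its highest level at the end of day 2 and was lower after 1 h of far-red light in the wild type. The wild-type arrays read 10.10, 10.21 and 10.20 in WL0, 9.52, 9.66 and 9.67 in FR1, and 9.14, 9.14 and 9.10 in FR3. The 3 groups did not overlap, and each later group lay below the one before. After 24 h the wild-type arrays read 8.25, 8.23 and 8.08 in FR24 and 7.99, 8.29 and 8.35 in WL24, and these overlapped. In pifq the arrays read 10.001, 9.98 and 10.15 in WL0, 9.98, 9.82 and 9.94 in FR1, and 9.12, 9.46 and 9.46 in FR3. Here WL0 and FR1 overlapped and FR3 lay below both. The last pifq arrays read 8.29, 8.51 and 8.41 in FR24 and 8.58, 8.59 and 8.71 in WL24, with all of FR24 below WL24.

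GSA1 fell by 0.55 ± 0.09 at 1 h in the wild type (adjusted p = 5.35e-05) and by 1.05 ± 0.09 at 3 h (adjusted p = 1.5e-10), which is 2.06-fold lower. In pifq its change was -0.13 ± 0.09 at 1 h (adjusted p = 0.572), and at 3 h it fell by 0.69 ± 0.09 (adjusted p = 8.14e-07). The difference between the genotypes' responses was 0.43 ± 0.13 at 1 h (adjusted p = 0.17) and 0.35 ± 0.13 at 3 h (adjusted p = 0.198), and neither was called. Under array weights both were called (adjusted p = 0.0371 and 0.0448), and the 3 h difference also without pifq FR3 replicate 1 (0.47, adjusted p = 0.0352). At 24 h no far-red response of GSA1 was called, with -0.02 ± 0.09 in the wild type (95% interval -0.21 to 0.17) and -0.23 ± 0.09 in pifq (adjusted p = 0.102).

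The largest change of GSA1 came with a day more of white light. From WL0 to WL24 it fell by 1.96 ± 0.09 in the wild type, which is 3.90-fold lower, and by 1.41 ± 0.09 in pifq, which is 2.66-fold lower. By size, place 117 among the falls of all probe sets went to GSA1 in the wild type. The 2 falls differed by 0.55 ± 0.13 (adjusted p = 0.0452). That difference was lost in 11 of 12 fits that left out 1 array, with values from 0.44 to 0.62 and an adjusted p of up to 0.133, and it was called only without WT WL24 replicate 3 (adjusted p = 0.0341).

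CHLI2 followed nearly the same course as GSA1 over the 10 group means (Pearson r = 0.98), apart from the 24 h far-red response. In the wild type that response was called for CHLI2 (-0.35) and not for GSA1 (-0.02). The wild-type arrays of CHLI2 read 10.34, 10.42 and 10.26 in WL0, 9.86, 9.96 and 10.04 in FR1, and 9.76, 9.74 and 9.56 in FR3. These groups did not overlap. The later wild-type arrays read 8.42, 8.60 and 8.62 in FR24, all below the 8.79, 8.94 and 8.97 of WL24. In pifq they read 10.15, 10.21 and 10.21 in WL0, 10.15, 10.10 and 10.09 in FR1, and 9.69, 10.06 and 9.83 in FR3. WL0 and FR1 overlapped in pifq, and FR3 lay below both. In pifq FR24 the arrays read 8.64, 8.82 and 8.72, below the 8.93, 9.001 and 9.05 of WL24.

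CHLI2 fell in the wild type by 0.39 ± 0.09 at 1 h, 0.66 ± 0.09 at 3 h and 0.35 ± 0.09 at 24 h (adjusted p = 0.00107, 2.08e-07 and 0.00241). In pifq its change was -0.07 ± 0.09 at 1 h (adjusted p = 0.773), and it fell by 0.33 ± 0.09 at 3 h (adjusted p = 0.00325) and by 0.27 ± 0.09 at 24 h (adjusted p = 0.0317). The pifq call at 24 h ended without pifq FR24 replicate 1 (adjusted p = 0.13) or replicate 3 (0.0775), or without pifq WL24 replicate 2 (0.0836) or replicate 3 (0.0961). The responses of the genotypes differed by 0.31 ± 0.12 at 1 h, 0.33 ± 0.12 at 3 h and 0.08 ± 0.12 at 24 h, and none of these was called (adjusted p = 0.272, 0.18 and 0.767). From WL0 to WL24 it fell by 1.44 ± 0.09 in the wild type and by 1.19 ± 0.09 in pifq, a difference of 0.25 ± 0.12 that was not called (adjusted p = 0.427).

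CHLM, the next enzyme in the chain after the chelatase, moved least of the 5 genes by the span of group means. Its group means spanned 0.53 on the log2 scale, against 2.61 for PORB, 1.98 for GSA1, 1.80 for CHLI2 and 0.80 for LYC. The mean of CHLM over all arrays, 11.94, was at percentile 99.1 of all probe sets. Whether this bright signal limited its measured changes was not tested. In WL0 the wild-type arrays read 11.90, 11.92 and 11.88 and the pifq arrays 11.73, 11.82 and 11.72, all below the wild type. In FR1 they read 11.86, 11.93 and 12.03 in the wild type and 11.88, 11.90 and 11.85 in pifq, and the genotypes overlapped. In FR3 the wild-type arrays read 11.68, 11.73 and 11.67 and the pifq arrays 11.91, 11.95 and 11.96, so that every pifq array lay above every wild-type one. In FR24 they read 11.93, 11.98 and 12.10 in the wild type and 11.95, 11.99 and 11.88 in pifq. In WL24 they read 12.24, 12.13 and 12.30 and 12.15, 12.11 and 12.22, and in both conditions the genotypes overlapped.

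At 3 h CHLM fell by 0.21 ± 0.07 in the wild type (adjusted p = 0.0138) and rose by 0.19 ± 0.07 in pifq (adjusted p = 0.0335). The difference between these responses, 0.40 ± 0.09, was called (adjusted p = 0.0126). The rise in pifq rests on small differences, and its call ended in 5 of 6 fits that left out 1 array (0.17 to 0.22, adjusted p up to 0.11), leaving it called only without pifq WL0 replicate 2 (adjusted p = 0.0299). The difference between the genotypes was called in all 12 such fits. At 24 h CHLM fell by 0.22 ± 0.07 in both genotypes (adjusted p = 0.0166 in the wild type and 0.0261 in pifq). The wild-type call was lost when replicate 1 (adjusted p = 0.0922) or 2 (0.0535) of WT FR24, or replicate 3 of WT WL24 (0.0863), was left out. The pifq call ended without pifq FR24 replicate 1 (0.055) or replicate 3 (0.105), or without pifq WL24 replicate 3 (0.0949). CHLM rose from WL0 to WL24, by 0.32 ± 0.07 in the wild type and 0.40 ± 0.07 in pifq.

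PORB gave the largest far-red response of the 5 genes, and that response differed most between the genotypes. Its wild-type arrays read 11.28, 11.46 and 11.32 in WL0, 10.96, 10.93 and 10.98 in FR1, and 11.07, 10.98 and 11.25 in FR3. FR1 and FR3 both lay below WL0, and the lowest FR3 array matched the highest FR1 array to 2 decimals. In the wild type PORB read 8.68, 8.74 and 8.80 in FR24 and 10.45, 10.27 and 10.07 in WL24. The groups did not overlap, and the whole wild-type FR24 group lay below every other PORB array.

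In pifq the PORB arrays read 11.30, 11.22 and 11.29 in WL0, 11.01, 11.15 and 11.03 in FR1, and 10.71, 10.81 and 11.17 in FR3. The 3 FR3 arrays were the most spread of any PORB group (SD 0.24), and replicate 3 was the highest. In FR24 the pifq arrays read 10.39, 10.27 and 10.18, just below the 10.54, 10.40 and 10.63 of WL24, and all of them lay above the wild-type FR24 arrays.

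After 24 h of far-red light PORB fell by 1.52 ± 0.10 in the wild type (adjusted p = 6.93e-13), which is 2.87-fold lower than in WL24, and took place 40 by size among the falls. In pifq its change was -0.25 ± 0.10 (95% interval -0.45 to -0.04, adjusted p = 0.101), 16.2% of the wild-type change on the log2 scale. The difference between the responses was 1.28 ± 0.14 (adjusted p = 9.47e-07), place 15 by p among all probe sets. It was called in each fit that left out 1 array. Earlier, PORB fell by 0.40 ± 0.10 at 1 h in the wild type (adjusted p = 0.0041), and at 3 h its change was -0.25 ± 0.10 (adjusted p = 0.052). The 3 h change was called without WT FR3 replicate 3 (-0.33, adjusted p = 0.0217). In pifq PORB had a change of -0.21 ± 0.10 at 1 h (adjusted p = 0.297) and fell by 0.37 ± 0.10 at 3 h (adjusted p = 0.00457), a call that ended without pifq FR3 replicate 1 (-0.28, adjusted p = 0.0569). The genotypes' responses differed by 0.19 ± 0.14 at 1 h (adjusted p = 0.644) and by -0.12 ± 0.14 at 3 h (adjusted p = 0.86), and neither was called. From WL0 to WL24 it fell by 1.09 ± 0.10 in the wild type and by 0.75 ± 0.10 in pifq.

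LYC, the gene of the carotenoid branch, had its highest group means at the last harvest, though in pifq the WL24 arrays overlapped those of WL0. Its wild-type arrays read 7.79, 7.84 and 7.82 in WL0, 7.56, 7.70 and 7.82 in FR1, and 7.48, 7.53 and 7.38 in FR3. In FR24 they read 8.23, 8.39 and 8.17 and in WL24 8.03, 8.03 and 8.13, and these were the highest wild-type arrays of the gene, with FR24 above WL24. In pifq the arrays read 7.74, 7.88 and 7.87 in WL0, 7.56, 7.71 and 7.71 in FR1, and 7.55, 7.70 and 7.61 in FR3. They ended at 8.11, 7.91 and 7.90 in FR24 and 7.84, 7.76 and 7.97 in WL24, which overlapped.

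LYC fell by 0.35 ± 0.08 at 3 h in the wild type (adjusted p = 0.000849), while its change in pifq was -0.21 ± 0.08 (adjusted p = 0.0506). Leaving out replicate 1 of pifq WL0 (-0.26, adjusted p = 0.0375) or replicate 2 of pifq FR3 (-0.25, adjusted p = 0.0396) gave a call in pifq. At 1 h its changes were -0.13 ± 0.08 and -0.17 ± 0.08, and at 24 h 0.20 ± 0.08 (adjusted p = 0.0808) and 0.12 ± 0.08 (adjusted p = 0.37), in the wild type and pifq, none called. The genotypes' responses differed by -0.04 ± 0.12, 0.14 ± 0.12 and -0.08 ± 0.12 at 1, 3 and 24 h, none called. From WL0 to WL24 it rose by 0.25 ± 0.08 in the wild type (adjusted p = 0.0133), a call that ended without WT WL24 replicate 3 (0.21, adjusted p = 0.0595). The change in pifq was 0.03 ± 0.08 (adjusted p = 0.813).

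**Figure D2:**
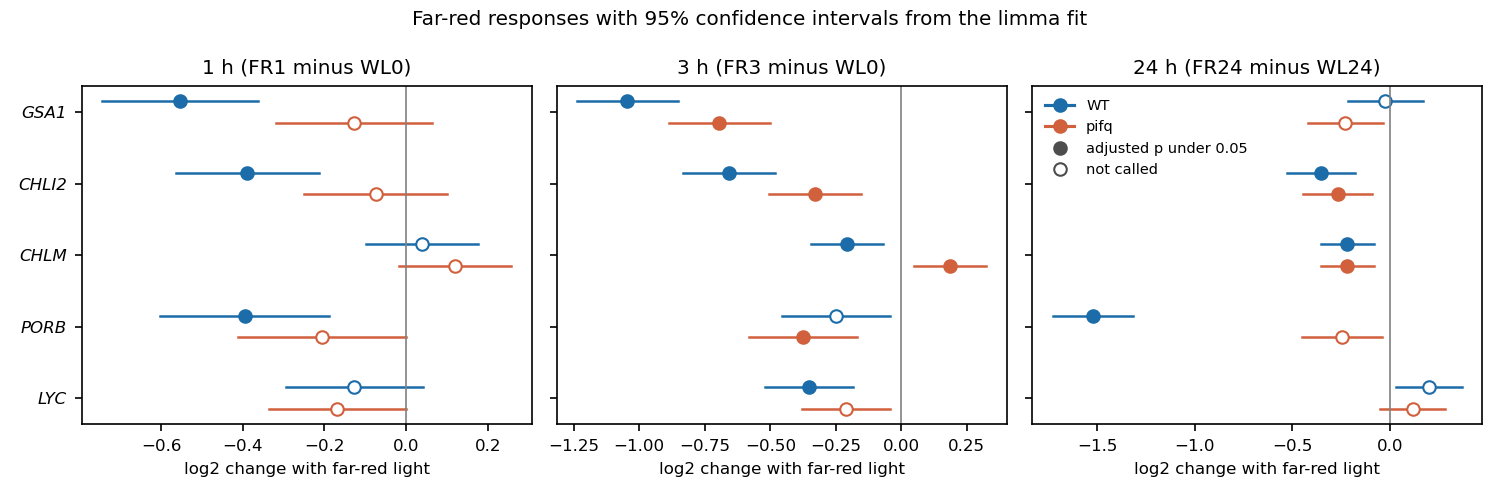
Log2 change with far-red light (horizontal axis, far-red minus white light) of the 5 genes at 1, 3 and 24 h, with 95% intervals from the limma fit, wild type in blue and pifq in red, filled where the adjusted p was under 0.05. Scales differ between panels. At 24 h the wild-type change of PORB, -1.52, stands apart from its change in pifq, -0.25, and from those of the other genes.

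Because the 5 genes were chosen with earlier results of these data known, counts of them describe these genes and test nothing about the pathway. Counted together, 3 of the 5 genes fell at 1 h in the wild type and none rose, where 12.5% of all probe sets fell. At 3 h 4 of 5 fell, against 18% of probe sets. At 24 h 3 of 5 fell, against 11.6%. In pifq none of the 5 was called at 1 h by limma, against 5.83% of probe sets called in either direction, and 2 had an unadjusted p under 0.05. None was called under the other settings tried. At 3 h 3 of 5 fell in pifq, against 15.3%, and CHLM rose, against 14.6%. At 24 h 2 of 5 fell, against 7.25%. The median change of the 5 genes at 1 h was -0.39 in the wild type and -0.13 in pifq, where the medians of all probe sets were -0.03 and -0.01. At 3 h it was -0.35 and -0.33, with medians of all probe sets of 0.00 and 0.02. At 24 h it was -0.22 and -0.23, with medians of 0.00 and -0.03. The 1 h and 3 h comparisons share their WL0 arrays.

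Levels of the 3 root genes moved too. At 3 h all 3 fell in both genotypes, and at 1 h 2 of 3 fell in the wild type and 0 in pifq, where 0 had an unadjusted p under 0.05 either. Their mean level per array lay between 7.63 and 7.76 in wild-type WL0 and between 6.59 and 6.91 in FR3. At 24 h all 3 rose with far-red light in both genotypes. Of the 8 green tissue genes, 4 rose and 1 fell at 3 h in the wild type, and 6 rose and 1 fell in pifq. Of all probe sets at 3 h, 18.1% rose and 18% fell in the wild type, and 14.6% and 15.3% in pifq. At 24 h 2 green tissue genes rose and 2 fell in the wild type, and 1 rose in pifq. Of all probe sets at 24 h, 11.6% rose and 11.6% fell in the wild type, and 7.6% and 7.25% in pifq. The part of root or green tissue in the changes of the 5 genes was not tested.

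The test of the difference between the genotypes' responses called 0 of 5 genes at 1 h by limma, where it called 0.475% of all probe sets. At an unadjusted p under 0.05, 2 genes, GSA1 and CHLI2, passed at 1 h, and array weights called GSA1. At 3 h it called CHLM, where 3.2% of probe sets were called, and at 24 h PORB, where 3.75% were. The pifq response was the higher one for 4 of 5 genes at 1 h and at 3 h, by a median of 0.19 and 0.33, with medians of all probe sets of 0.02 and 0.01. At 24 h it was higher for 3 of 5, with a median difference of 0.00. The change from WL0 to WL24, with no far-red light, was also higher in pifq for 4 of 5 genes. Its median difference was 0.25, with a median of all probe sets of 0.01. These differences share arrays with the responses they are made from. Those at 1 h, at 3 h and in white light also share the WL0 arrays of both genotypes. In WL0 itself 4 of 5 genes measured lower in pifq, none called, with a median difference of -0.13 (all probe sets -0.01).

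Between 3 h and 24 h the response itself changed, with each time point read against its own control. In the wild type the 24 h response was lower than the 3 h response for PORB, by 1.27 ± 0.14 (adjusted p = 1.92e-08), and higher for GSA1, by 1.02 ± 0.13 (adjusted p = 2.6e-07). It was also higher for LYC, by 0.55 ± 0.12 (adjusted p = 0.000321), and for CHLI2, by 0.31 ± 0.12 (adjusted p = 0.0489). In all 4 of 5 genes were called, against 34.8% of probe sets. The CHLI2 call ended in 7 of 12 fits that left out 1 array (0.24 to 0.37, adjusted p up to 0.151). In pifq 3 of 5 were called, against 24.7% of probe sets: GSA1 higher by 0.47 ± 0.13 (adjusted p = 0.00947), LYC higher by 0.33 ± 0.12 (adjusted p = 0.0375) and CHLM lower by 0.40 ± 0.09 (adjusted p = 0.00191). The LYC call in pifq ended in 7 of 12 fits that left out 1 array (0.26 to 0.38, adjusted p up to 0.124).

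Within the early hours, GSA1 fell further from FR1 to FR3, by 0.49 ± 0.09 in the wild type and 0.57 ± 0.09 in pifq. CHLI2 and CHLM also fell in the wild type, by 0.27 ± 0.09 and 0.25 ± 0.07, so that 3 of 5 genes fell, against 9.93% of probe sets. In pifq CHLI2 fell as well, by 0.26 ± 0.09, and 2 of 5 genes fell, against 7.57%. The CHLI2 call ended in 3 of 6 fits that left out 1 array in the wild type (adjusted p up to 0.149) and in 5 of 6 in pifq (up to 0.284), and the CHLM call without WT FR1 replicate 3 (-0.20, adjusted p = 0.0506).

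The measured change over a day more of white light exceeded every far-red response of GSA1, CHLI2 and CHLM in both genotypes and of PORB in pifq. The 24 h response of PORB and the 3 h response of LYC in the wild type were larger than this change. For LYC in pifq this change was 0.03, and the far-red responses at 1, 3 and 24 h were all larger in size. In the wild type GSA1, CHLI2 and PORB fell from WL0 to WL24, where 23.6% of all probe sets fell, and CHLM and LYC rose, where 24.5% rose. In pifq GSA1, CHLI2 and PORB fell, where 23.8% fell, and CHLM rose, where 25.5% rose. Of the 5 genes GSA1 was called for a difference of this change between the genotypes, where 0.624% of probe sets were called. The change in pifq was 72% of that in the wild type for GSA1, 82.7% for CHLI2, 68.7% for PORB, 125.0% for CHLM and 10.9% for LYC on the log2 scale. All 3 root markers fell over the same day in both genotypes, from a mean of 7.71 to 5.60 in the wild type and from 7.92 to 6.17 in pifq. Of the green tissue genes 4 rose and 1 fell in the wild type, and 5 rose and 1 fell in pifq.

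The genotypes were also compared within each light condition. At WL0 limma called none of the 5 genes, against 1.67% of probe sets in either direction, and CHLM passed an unadjusted p of 0.05 (pifq lower by 0.14 ± 0.07, adjusted p = 0.41). The other settings tried gave 0 calls there too. In FR1 GSA1 was higher in pifq by 0.30 ± 0.09 (adjusted p = 0.033), where 7.08% of probe sets were higher. That call ended without WT FR1 replicate 1 (0.25, adjusted p = 0.169) or replicate 2 (0.0548), or without pifq FR1 replicate 1 (0.131) or replicate 3 (0.0962). In FR3 CHLM was higher in pifq by 0.25 ± 0.07 (adjusted p = 0.0125), where 5.47% were higher, and the call ended without pifq FR3 replicate 3 (0.24, adjusted p = 0.0543). All 3 root markers were higher in pifq in FR1, FR3 and WL24.

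In FR24 PORB was higher in pifq by 1.54 ± 0.10 (adjusted p = 4.05e-12), a 2.90-fold difference that took place 9 by p among all probe sets. LYC was lower in pifq by 0.29 ± 0.08 (adjusted p = 0.0218), and the 2 together compare with 8.31% of probe sets called in either direction. The LYC call was lost on leaving out any 1 of 3 arrays, WT FR24 replicate 2 (-0.23, adjusted p = 0.153), pifq FR24 replicate 2 (-0.26, adjusted p = 0.0937) or pifq FR24 replicate 3 (-0.25, adjusted p = 0.0985). In WL24 GSA1 was higher in pifq by 0.42 ± 0.09 (adjusted p = 0.00402), where 4.3% were higher. Fits to the compared arrays alone did not call GSA1 in WL24 (adjusted p = 0.0724), LYC in FR24 (0.108) or CHLM in FR3 (0.0612). PORB was higher in pifq in WL24 by 0.26 ± 0.10 without being called (adjusted p = 0.111). It was called without WT WL24 replicate 1 (0.36, adjusted p = 0.0419).

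**Figure D3:**
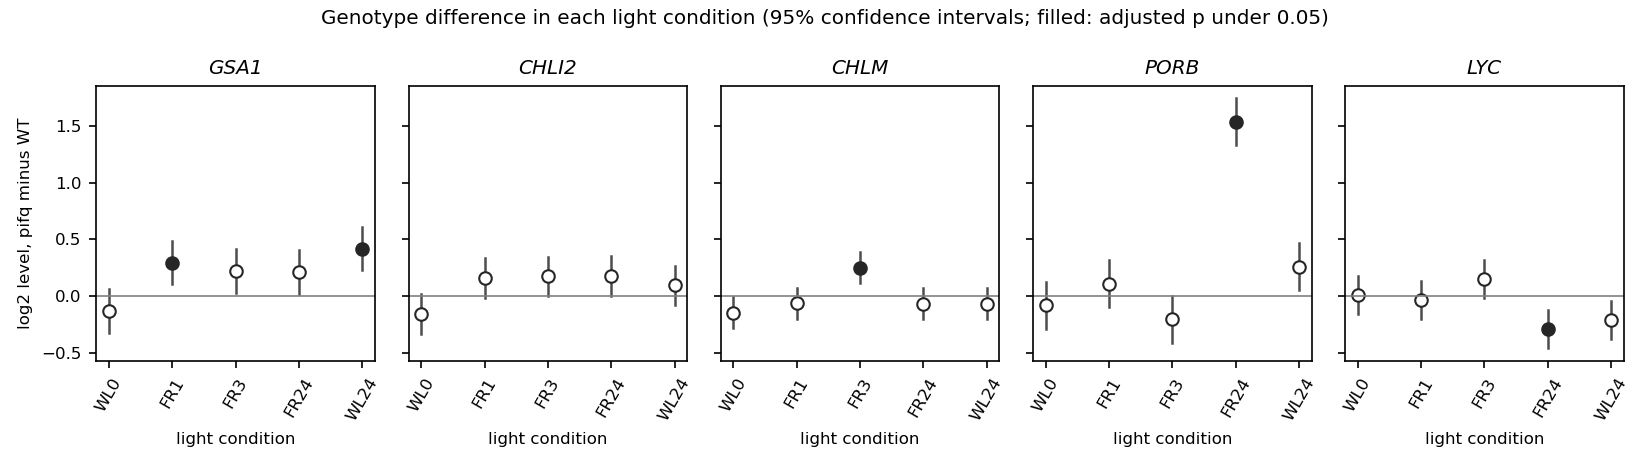
Log2 level in pifq minus that in the wild type for the 5 genes (1 panel each) in each light condition, with 95% intervals from the limma fit, filled where the adjusted p was under 0.05. PORB in FR24, at 1.54, is the largest difference, and the others lie between -0.29 and 0.42.

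Ordered by level, the 10 groups fell into different series for each gene. GSA1 and CHLI2 had the same order from the top for the first 6 groups, wild-type WL0, pifq WL0, pifq FR1, wild-type FR1, pifq FR3 and wild-type FR3, and wild-type FR24 at the bottom. For GSA1 the neighbours whose arrays overlapped were the 2 WL0 groups, pifq WL0 and pifq FR1, pifq FR3 and wild-type FR3, pifq FR24 and wild-type WL24, and the last 2, wild-type WL24 and FR24. For CHLI2 pifq WL0 overlapped pifq FR1, wild-type FR1 overlapped pifq FR3, pifq FR3 overlapped wild-type FR3, and wild-type WL24 overlapped both pifq WL24 and pifq FR24. PORB was highest in wild-type WL0 and lowest in wild-type FR24, 6.11-fold apart. From wild-type WL0 down to pifq FR1 each PORB group overlapped the next, as did wild-type FR1 with pifq FR3 and pifq FR24 with wild-type WL24. CHLM was highest in wild-type WL24 and lowest in wild-type FR3, and all neighbours overlapped but pifq WL24 with wild-type FR24, and pifq FR1 with pifq WL0. LYC was highest in wild-type FR24 and lowest in wild-type FR3, and each of these alone stood clear of its neighbour.

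Over the 10 group means the level of GSA1 went with that of CHLI2 (Pearson r = 0.98), and PORB with both (0.81 and 0.86). CHLM and LYC had negative correlations with these 3 genes, from -0.48 to -0.81, and a positive one with each other (0.59). These values describe 10 groups that share 2 genotypes and the same harvest times, and carry no test. Among 891 other genes with a symbol, 1 locus and group means spanning at least 0.5, Cpn60beta2 (r = 0.99), COS1 (0.99) and CFM3A (0.99) were most like GSA1. ATLP-1 (0.99), BUB3.1 (0.99) and HEMB1 (0.99) were most like CHLI2. TEX1 (0.95), IQD31 (0.94) and RALFL34 (0.94) were most like PORB. ATMRK1 (0.92), SFP2 (0.91) and CaS (0.91) were most like CHLM, and the sucrose phosphate synthase gene ATSPS4F (0.95), VPS9B (0.95) and EX1 (0.94) were most like LYC.

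The other genes of the pathway were read from lists of which few members had a probe set of their own here. These were 8 of 33 other tetrapyrrole and chlorophyll genes (HEMA2, HEMA3, HEMB1, HEMB2, HEME1, HEME2, HEMF2 and CHLP), 2 of 14 other carotenoid genes (ZISO and OR), 0 of 10 plastid isoprenoid genes, 1 of 15 breakdown genes (NOL) and 1 of 16 regulators (HYH). HEMA3 and HEMB2 read low, with group means of 3.34 to 3.59 and 3.43 to 3.71, where array medians were 5.56 to 5.64. They are kept in the counts and medians of the 8 genes, and whether either was expressed was not tested. The isoforms GSA2, CHLI1, PORA and PORC were not analysed here, and whether the probe sets also read them was not tested.

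**Figure D4:**
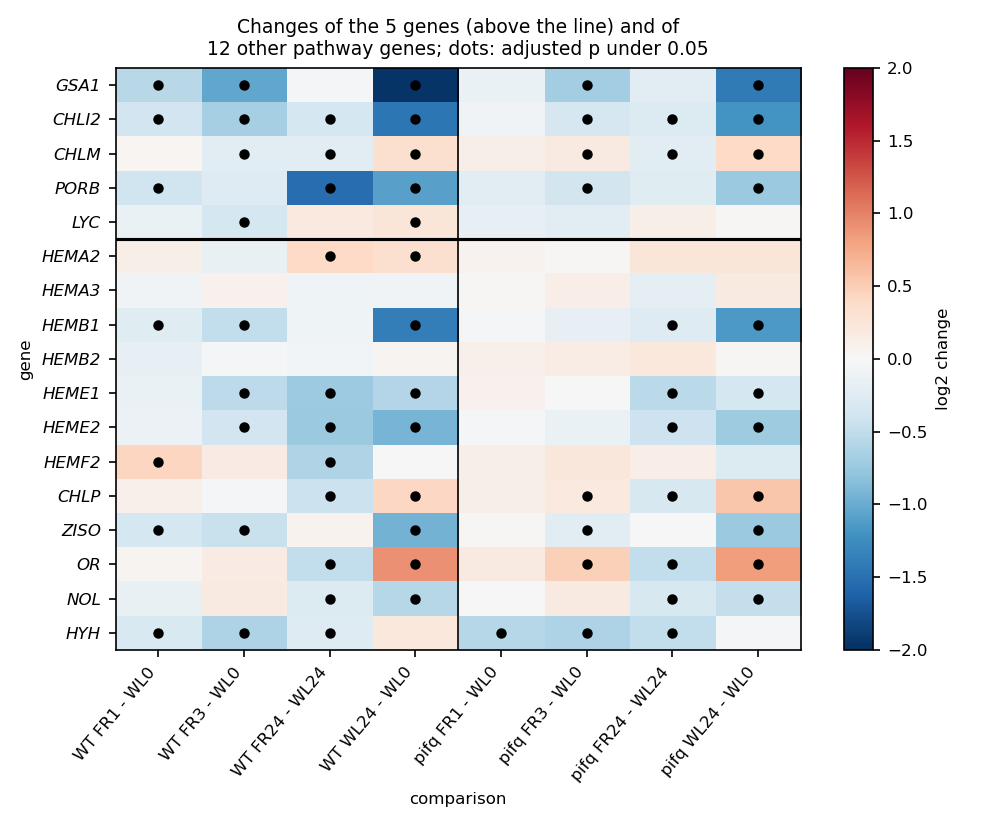
Log2 change (colour, scale at right from -2 to 2) of the 5 genes, above the line, and of 12 other pathway genes, below it, in the far-red comparisons and from WL0 to WL24 in the wild type (left) and pifq (right). Dots mark an adjusted p under 0.05. In the wild type HEME1 and HEME2 fell by 0.72 and 0.74 at 24 h of far-red light, and GSA1 and HEMB1 by 1.96 and 1.39 from WL0 to WL24.

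At 1 h in the wild type, 1 of the 8 tetrapyrrole genes fell, HEMB1 by 0.25 ± 0.08, and 1 rose, HEMF2 by 0.42 ± 0.12, where 12.5% of all probe sets fell and 10.7% rose. HEMB1 encodes the aminolevulinic acid dehydratase that uses the product of GSA1, and HEMF2 a coproporphyrinogen oxidase. At 3 h 3 of 8 fell, HEME1 by 0.52 ± 0.08, HEMB1 by 0.49 ± 0.08 and HEME2 by 0.39 ± 0.07, against 18% of probe sets. HEME1 and HEME2 encode uroporphyrinogen decarboxylases. At 24 h 4 of 8 fell, HEME2 by 0.74 ± 0.07, HEME1 by 0.72 ± 0.08, HEMF2 by 0.60 ± 0.12 and CHLP by 0.43 ± 0.06, and HEMA2 rose by 0.40 ± 0.12, where 11.6% of probe sets fell and 11.6% rose. CHLP encodes the reductase that makes the phytol tail of chlorophyll. Their median changes were -0.09 at 1 h, -0.08 at 3 h and -0.26 at 24 h.

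In pifq limma called 0 of the 8 at 1 h, where 5.83% of probe sets were called, and 0 had an unadjusted p under 0.05. At 3 h CHLP rose by 0.20 ± 0.06 and no other was called, where 14.6% of probe sets rose and 15.3% fell, and the median change was 0.08. At 24 h 4 of 8 fell, HEME1 by 0.54 ± 0.08, HEME2 by 0.41 ± 0.07, CHLP by 0.32 ± 0.06 and HEMB1 by 0.26 ± 0.08, against 7.25%. The difference between the genotypes' responses was called for HEME1 at 3 h (0.52 ± 0.12, adjusted p = 0.00972) and for HEMF2 at 24 h (0.74 ± 0.16, adjusted p = 0.00655). In the level itself, HEMF2 was lower in pifq in FR1 by 0.34 ± 0.12 (adjusted p = 0.0446), where 6.56% of probe sets were lower. In FR3 HEME1 and HEMB1 were higher in pifq by 0.38 ± 0.08 and 0.24 ± 0.08, where 5.47% were higher. In FR24 HEME2, HEMF2 and HEME1 were higher in pifq by 0.43 ± 0.07, 0.43 ± 0.12 and 0.28 ± 0.08, where 4.47% were higher. From WL0 to WL24 HEMB1 fell by 1.39 ± 0.08 in the wild type and by 1.14 ± 0.08 in pifq, from 10.82 ± 0.02 to 9.43 ± 0.05 in the wild type (SD, n = 3). HEME2 fell by 0.93 ± 0.07 and 0.71 ± 0.07 and HEME1 by 0.58 ± 0.08 and 0.35 ± 0.08, while CHLP rose by 0.41 ± 0.06 and 0.56 ± 0.06. HEMA2 rose by 0.33 ± 0.12 in the wild type, and its change in pifq, 0.24 ± 0.12, was not called. So 3 of 8 fell and 2 rose in the wild type, where 23.6% of probe sets fell and 24.5% rose. In pifq 3 fell and 1 rose, where 23.8% fell and 25.5% rose.

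On the carotenoid side ZISO, which encodes the isomerase acting on zeta-carotene, fell in the wild type by 0.35 ± 0.09 at 1 h and 0.44 ± 0.09 at 3 h, and by 0.95 ± 0.09 from WL0 to WL24. In pifq ZISO fell by 0.22 ± 0.09 at 3 h (adjusted p = 0.0497) and by 0.73 ± 0.09 from WL0 to WL24, and its change at 1 h was 0.02 ± 0.09 (adjusted p = 0.961). OR, which encodes a plastid protein that stabilises phytoene synthase, fell by 0.49 ± 0.07 at 24 h in both genotypes. It rose from WL0 to WL24 by 0.92 ± 0.07 in the wild type and 0.84 ± 0.07 in pifq. At 3 h OR rose by 0.48 ± 0.07 in pifq, and its change in the wild type was 0.17 ± 0.07 without a call. NOL, which encodes a chlorophyll b reductase subunit, fell by 0.27 ± 0.10 at 24 h in the wild type and by 0.32 ± 0.10 in pifq. HYH, which encodes a bZIP factor related to HY5, fell in every far-red comparison, by 0.31, 0.61 and 0.26 at 1, 3 and 24 h in the wild type and by 0.57, 0.62 and 0.50 in pifq. No difference between the genotypes' far-red responses was called for ZISO, OR, NOL or HYH. In level, OR was lower in pifq by 0.29 ± 0.07 in FR24 and 0.28 ± 0.07 in WL24, and HYH by 0.43 ± 0.09 in FR24, where 3.85% of probe sets were lower in FR24 and 4.3% in WL24.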

How the data were processed

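The authors deposited log2 values made with RMA, per the submitters' processing notes, with no version named. RMA corrects background, gives all arrays the same quantiles and summarises the probes of a set. Equal quantiles hide a shift of most transcripts in 1 direction. In such array values changes of very dim and very bright probe sets can be compressed, so large changes can be understated. Scanner files, scan dates and array batches were not used here.

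The table held 22810 probe sets on 30 arrays, and the 64 control probe sets were left out. Genes were named through the platform annotation, joined by gene ID to the RefSeq gene table. Of 22746 probe sets 13436 (59.1%) had exactly 1 locus, 503 several genes, 77 a gene ID without a locus and 8730 no gene there. Where a locus had several probe sets the one of highest mean stood for it.

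Group means were fitted in 1 linear model with limma 3.58.1 (lmFit and eBayes, R 4.3.3), with 20 residual and 9.44 prior degrees of freedom, and gave 21 comparisons. P-values are two-sided, and intervals are at 95%. Simulated data with known changes served to test the fit. Alternatives were fits to the arrays compared alone, a replicate block, array weights, a mean level of at least 6, a trended robust prior, centring of arrays, WL0 as the control of FR24, calls of at least 1.5-fold and leaving out each array. With 3 arrays against 3, an exact permutation test of a single gene cannot go below p = 0.1, so limma was used. The members and lists were chosen with earlier results of these data known. All 5 members were named in every comparison, with at most 6 called genes of each other list in a comparison, those of largest change. For the likeness of patterns the 3 genes of highest Pearson r to each member were named.

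Shared replicate numbers did not pair the arrays: deviations from the group means of arrays with the same number correlated at 0.01 on average, and every pair was above 0.1 in 1 of 15 comparisons of groups. The planned search of promoters for motifs and the comparison of protein isoforms were not run, since no sequences were used here.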

Additional observations from a re-analysis of the deposited data

Results flagged for a closer look

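In the results below, the responses of 2 genotypes to the same treatment, or of 1 genotype at 2 exposure times, differed by the limma test of the difference (adjusted p under 0.05), on the log2 scale.

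Between genotypes, the 24 h far-red response of PORB was higher in pifq than in the wild type by 1.28 ± 0.14. The 3 h response of CHLM was higher in pifq by 0.40 ± 0.09. In level, CHLM was lower in pifq by 0.14 ± 0.07 in WL0, not called, and higher by 0.25 ± 0.07 in FR3. The change of GSA1 from WL0 to WL24 was less negative in pifq, by 0.55 ± 0.13, a difference lost in 11 of 12 fits that left out 1 array.

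Between 3 h and 24 h of far-red light in the wild type, the later response was lower for PORB by 1.27 ± 0.14 (a change of -1.27). It was higher for GSA1 by 1.02 ± 0.13, for LYC by 0.55 ± 0.12 and for CHLI2 by 0.31 ± 0.12. The CHLI2 call ended in 7 of 12 fits that left out 1 array, with only the arrays compared (adjusted p = 0.0667), with array weights (0.27, adjusted p = 0.0671) and with centring on the median (0.30, adjusted p = 0.0566). In pifq the later response was higher for GSA1 by 0.47 ± 0.13 and for LYC by 0.33 ± 0.12, and lower for CHLM (-0.40 ± 0.09). The LYC call ended in 7 of 12 fits that left out 1 array and with only the arrays compared (adjusted p = 0.074). The 3 h response is read against WL0 and the 24 h response against WL24, so treatment time and age of the control cannot be told apart.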

How the results depend on the processing

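Of 105 changes of the 5 genes, 45 were called. Recomputed under the alternatives, 1452 of 1560 values kept their side of the threshold and, where called, their direction. Small changes that crossed 0 but were called in neither fit are counted among these. Of the rest, 74 calls ended, 32 were gained and 2 reversed. Replicates with the same number were not paired, and a fit with a replicate block changed none of the calls (PORB at 24 h -1.52 ± 0.10 in the wild type, its difference between genotypes 1.28 ± 0.15).

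Reversals came with WL0 as the control of FR24, where CHLM gave 0.10 in the wild type and 0.18 in pifq, both -0.22 against WL24. This control also carries the day of growth, and with it GSA1 gave -1.99 and -1.64, LYC 0.45 in the wild type and PORB -0.99 in pifq, all called, with 4 genes called in pifq. With only the arrays compared, PORB at 3 h in the wild type was called (-0.25, adjusted p = 0.039). CHLM was not called at 24 h in the wild type (-0.22) or pifq (-0.22) or at 3 h in pifq (0.19), nor CHLI2 at 24 h in pifq (-0.27). In that setting 1 gene was called from FR1 to FR3 in each genotype, 0 at 24 h in pifq and 0 for the genotype difference of the white-light change. Between genotypes it gave 0 in FR3, 1 in FR24 and 0 in WL24.

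PORB at 3 h in the wild type was also called with array weights (-0.25), a mean level of at least 6 (-0.25), a trended robust prior (-0.25) and centring on the 75th percentile (-0.26). LYC at 3 h in pifq was called with array weights (-0.23), the level minimum (-0.21), the trended prior (-0.21) and centring on the median (-0.21) or 75th percentile (-0.21). LYC at 24 h in the wild type was called with array weights (0.22) and the level minimum (0.20). With array weights the genotype difference of GSA1 was called at 1 h (0.41) and 3 h (0.38), which made 1 and 2 genes.

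Asking for at least 1.5-fold left, in the wild type, 0 genes at 1 h, 2 at 3 h, 1 at 24 h, 3 from WL0 to WL24, 0 from FR1 to FR3 and 2 for 24 h against 3 h. In pifq it left 1 at 3 h and 0 at 24 h, from FR1 to FR3 and for 24 h against 3 h. For the genotype difference of responses it left 0 at 3 h and 0 for the white-light change, and between genotypes 0 in FR1, FR3 and WL24 and 1 in FR24.

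Leaving out 1 array at a time moved PORB at 3 h between -0.33 and -0.19 in the wild type and between -0.51 and -0.28 in pifq. CHLM ranged from -0.27 to -0.18 at 24 h in the wild type, from -0.24 to -0.19 in pifq and from 0.17 to 0.22 at 3 h in pifq. CHLI2 at 24 h in pifq ranged from -0.31 to -0.23, LYC at 3 h in pifq from -0.26 to -0.18, and the genotype difference of GSA1 at 3 h from 0.29 to 0.47. Counts of called genes ranged from 2 to 4 at 3 h and 0 to 2 at 24 h in pifq, from 1 to 4 and 1 to 2 from FR1 to FR3 in the wild type and pifq, and from 1 to 2 and 0 to 1 for the genotype difference at 3 h and in the white-light change. Between genotypes they ranged from 0 to 1 in FR1, 1 to 2 in FR3, 1 to 2 in FR24 and 1 to 2 in WL24. Fits with fewer arrays have less power by construction, and for the other settings the cause was not tested. Changes of about 0.2 lie at the limit of what 3 arrays per group resolve.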
